A study of Homo sapiens with 2 samples.

Results

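The chromatin around the AP-1 transcription factor genes was described from ATAC-seq peak lists of 293T cells, a line from human embryonic kidney that expresses large T antigen of SV40. The 9 genes FOS, FOSB, FOSL1, FOSL2, JUN, JUNB, JUND, ATF3 and BATF3 were taken by name from GENCODE 44 on GRCh38, out of 20033 protein-coding genes. Every deposited peak within 1000 bp of a transcription start site (TSS) of these genes, over the gene body or within 100 kb of a TSS was used, which gave 60 of 36142 control peaks and 52 of 22884 peaks from cells treated with methylglyoxal (MGO). The control cells were labelled PBS, while the treatment protocol describes fresh medium with nothing added, and the treated cells received 0.5 mM MGO in fresh medium for 12 h. Each list comes from 1 library of 50000 cells, so no difference between the conditions could be set against replicate error and no test was made. The peak names carry the number 2 and the methods describe consensus peaks, so further libraries may have been made, which were not analysed here. The question of the comparison was how MGO, a reactive by-product of glycolysis that modifies histones and other proteins, changes DNA accessibility.

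AP-1 is a dimer of basic leucine zipper proteins. Fos proteins bind DNA only together with a Jun protein, whereas Jun proteins also pair with each other, and ATF3 and BATF3 are further partners of Jun. The dimers bind the TPA response element (TRE, TGACTCA or on the other strand TGAGTCA) and the cyclic AMP response element (CRE, TGACGTCA), and FOS, JUN and ATF3 are known as immediate-early genes that mitogens and stress switch on within minutes through MAP kinases. The genes were selected on a readout of these lists, since an earlier look at them had found the TRE at a higher density in peaks of the MGO list alone. The motif values are therefore given as a description.

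The stretches just upstream of the starts are shown for the genes on which the values below turn. All are from GRCh38, 5′ to 3′ on the strand of the gene, and capitals mark a motif match. FOS is shown for its CArG box, the site of serum response factor, which begins 312 bp before the most upstream start (chr14:75278506-75278805, plus strand). JUN is shown for the variant TGACATCA, on the other strand TGATGTCA, which Jun and ATF2 dimers are known to bind and which begins 66 bp before the start (chr1:58784049-58784298, minus strand). JUND is shown for a CRE that begins 200 bp before the start (chr19:18281623-18281872, minus strand). FOSB (chr19:45467745-45467994, plus strand) and JUNB (chr19:12791236-12791485, plus strand) are shown because only the MGO peaks reached these bases.
FOS: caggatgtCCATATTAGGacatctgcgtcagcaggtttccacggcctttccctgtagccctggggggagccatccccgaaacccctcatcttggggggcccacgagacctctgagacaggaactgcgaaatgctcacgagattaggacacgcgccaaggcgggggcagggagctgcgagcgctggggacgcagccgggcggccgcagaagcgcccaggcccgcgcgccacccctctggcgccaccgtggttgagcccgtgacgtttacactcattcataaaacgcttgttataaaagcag
FOSB: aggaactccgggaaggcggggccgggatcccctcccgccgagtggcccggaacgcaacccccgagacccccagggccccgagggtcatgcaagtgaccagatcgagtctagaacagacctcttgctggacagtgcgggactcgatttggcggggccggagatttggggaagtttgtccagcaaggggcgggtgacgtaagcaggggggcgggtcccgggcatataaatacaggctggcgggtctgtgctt
JUN: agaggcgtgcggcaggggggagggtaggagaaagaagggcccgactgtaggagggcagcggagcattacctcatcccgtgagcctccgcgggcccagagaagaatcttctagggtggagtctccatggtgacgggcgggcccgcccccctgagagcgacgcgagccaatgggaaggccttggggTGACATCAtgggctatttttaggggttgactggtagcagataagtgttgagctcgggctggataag
JUNB: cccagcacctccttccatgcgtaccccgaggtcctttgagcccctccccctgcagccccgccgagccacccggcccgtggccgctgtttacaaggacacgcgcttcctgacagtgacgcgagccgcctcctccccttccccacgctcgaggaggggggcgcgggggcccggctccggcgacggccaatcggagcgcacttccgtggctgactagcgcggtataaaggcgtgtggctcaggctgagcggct
JUND: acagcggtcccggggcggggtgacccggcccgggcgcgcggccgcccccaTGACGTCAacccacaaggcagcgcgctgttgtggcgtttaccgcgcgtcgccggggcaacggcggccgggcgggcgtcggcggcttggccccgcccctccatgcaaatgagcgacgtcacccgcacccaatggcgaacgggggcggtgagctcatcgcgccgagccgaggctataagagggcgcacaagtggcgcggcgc
In FOS both peaks covered all 300 bases, and in JUN and JUND both covered all 250 bases. In FOSB the control peak covered 0 of the 250 bases and the MGO peak 183, and in JUNB the MGO peak covered 32. None of the TRE, CRE, JUN variant or CArG letters occurred in the FOSB and JUNB stretches, which says only that these letters are not in these windows.

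The TRE matches nearest to the starts of FOSL1 (chr11:65900372-65900400) and FOSL2 (chr2:28392851-28392879) are shown because control and MGO peaks both covered them. The match near FOSL2 at chr2:28326175-28326203 is shown because it lay in the 1 MGO-only peak with a TRE. The stretch upstream of ATF3 (chr1:212558997-212559101) is shown because it holds a TRE and a CRE whose first bases are 37 bp apart, both inside a control and an MGO peak. All 4 are on the plus strand with the TRE and CRE in capitals.
FOSL1 start: ctgctgggttcTGACTCAcccgcgccgtg
FOSL2 start: tgccattgtagTGACTCAtctcgggcaga
FOSL2 MGO-only peak: gagcttggtggTGACTCAccaccatccga
ATF3 upstream: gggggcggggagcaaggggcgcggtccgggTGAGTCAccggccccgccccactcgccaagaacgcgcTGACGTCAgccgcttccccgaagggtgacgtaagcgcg

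At their own starts, 8 of the 9 AP-1 genes had a control TSS peak and 9 of 9 had an MGO TSS peak, against 67.3% and 63.9% of protein-coding genes. JUNB was the 1 gene with an MGO peak alone. This state was found for 1.26% of protein-coding genes and for 3.32% of those on chromosome 19, where JUNB lies. A control peak alone was found for 0 of 9, against 4.72%. Of the 8 genes with both peaks, the MGO peak was at least 1.5-fold wider in 2, FOSB and FOSL1, against 4.52% of protein-coding genes with both. On chromosome 19, where FOSB lies, it was that much wider in 92 of 763 such genes. Among 10 other dimer partners, read from a list described below, it was so in 2 of the 8 with both peaks. For the AP-1 genes the MGO peak was at least 1.5-fold narrower in 0 of 8, against 17.2%. The width ratio of MGO to control had a median of 0.953 over the 8 genes and 0.897 over all protein-coding genes with both peaks. The 3 MGO peaks at FOSB, FOSL1 and JUNB were also the weakest of the 9, with a −log10 q below 2. At the study's threshold of q 0.01, a −log10 q of 2, the counts therefore turned to 8 genes in the control list and 6 in the MGO list, against 63.3% and 57.8% of protein-coding genes.

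**Figure D1:**
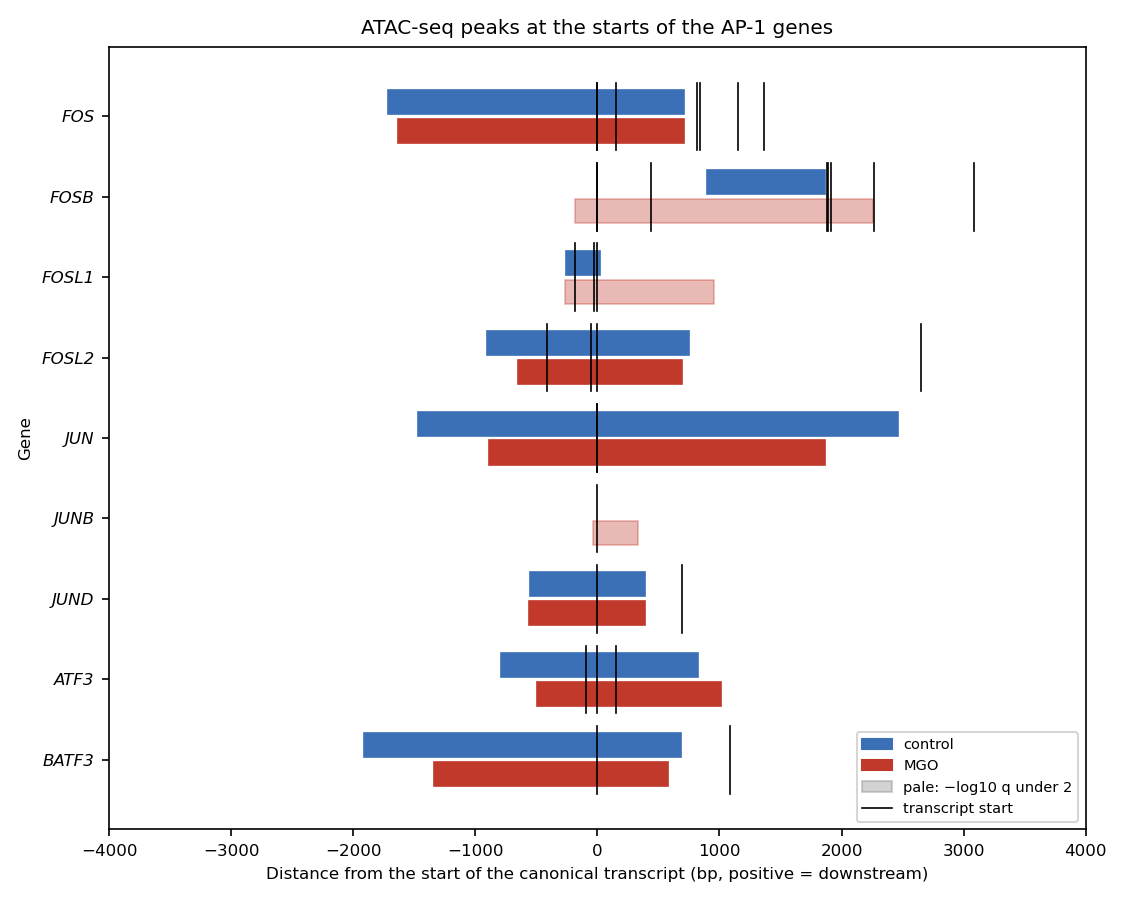
Peaks of control (blue) and MGO (red) at the starts of the 9 AP-1 genes, by distance from the start of the canonical transcript in bp, with positive values downstream. Vertical lines are annotated transcript starts and pale bars are peaks with a −log10 q under 2, namely the MGO peaks of FOSB, FOSL1 and JUNB, and JUNB has no control bar.

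Across the whole series the MGO list was shorter, with a ratio of MGO to control peak number of 0.633. The covered length was 30.3 Mb in the control and 19.5 Mb in the MGO list. An overlap of at least 1 bp with the other list was found for 49.9% of control and 78.9% of MGO peaks. The lists hold peaks down to a −log10 q of 1.01 in both, and 23907 control and 16093 MGO peaks reached 2. The authors subsampled the reads to equal depth, and the lists give no read count for a peak or a library. Of 4 genes chosen as markers of 293T cells (VIM, INA, PAX2 and LHX1), 3 had a TSS peak in both lists and LHX1 had none. Among genes of other lineages, MYOD1 had one in the control list alone, and PTPRC, CD3E, ALB and GFAP had none in either.

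The Fos genes encode the partners that need a Jun protein to bind DNA. FOS (ENSG00000170345.10, chr14:75278826-75282230, plus strand), the founding member, had a control peak at chr14:75277116-75279534 of 2419 bp, with a fold enrichment over background of 2.62 and a −log10 p of 5.60. The MGO peak at chr14:75277193-75279536 was 2344 bp wide, with a fold enrichment of 2.57 and a −log10 p of 5.53. They shared 2342 bp and ended 2 bp apart at the downstream edge, so at FOS the lists were close in every measure. Both peaks held 3 of the 7 annotated starts and reached from the upstream region into the coding exons.

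FOSB (ENSG00000125740.15, chr19:45467995-45475179, plus strand), which encodes a full-length and a truncated Fos protein, had a control peak of 964 bp at chr19:45468897-45469860, with a fold enrichment of 3.44 and a −log10 p of 7.99. This peak lay inside an intron and held 0 of 8 starts. It ended 16 bp from an internal start and also began within 1000 bp of the canonical start, so it counted as a TSS peak by either. The MGO peak at chr19:45467812-45470257 was 2446 bp wide and held 6 of the 8 starts, the canonical one included, with a fold enrichment of 2.27 and a −log10 p of 4.28. The MGO peak thus contained the whole control peak, which was 39.4% of its length, and was wider and weaker at once. ERCC1, a DNA repair gene, has transcripts that run across FOSB, so these bases are not assigned to FOSB alone.

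FOSL1 (ENSG00000175592.9, chr11:65892049-65900573, minus strand) encodes Fra-1, a Fos protein that lacks the transactivation domain of FOS. Its control peak at chr11:65900364-65900648 was 285 bp wide, with a fold enrichment of 3.28 and a −log10 p of 5.48, and covered untranslated exonic sequence but no coding bases. The MGO peak at chr11:65899433-65900655 was 1223 bp wide, with a fold enrichment of 2.60 and a −log10 p of 4.40, and reached further into the gene. The control peak made up 23.3% of the MGO peak, and all 3 annotated starts were in both. FOSL1 therefore had the widest relative extension of the 8 genes, 4.29-fold, next to 2.54-fold for FOSB.

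FOSL2 (ENSG00000075426.12, chr2:28392448-28417317, plus strand) encodes Fra-2, a further Fos protein of this shorter kind. It had a control peak of 1652 bp at chr2:28391955-28393606 and an MGO peak of 1345 bp at chr2:28392204-28393548 that lay wholly inside it. The fold enrichment was 3.04 and 2.96 and the −log10 p 8.36 and 7.51. Both peaks covered 3 of 4 starts, so the difference at FOSL2 was one of width, with a ratio of 0.814.

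**Figure D2:**
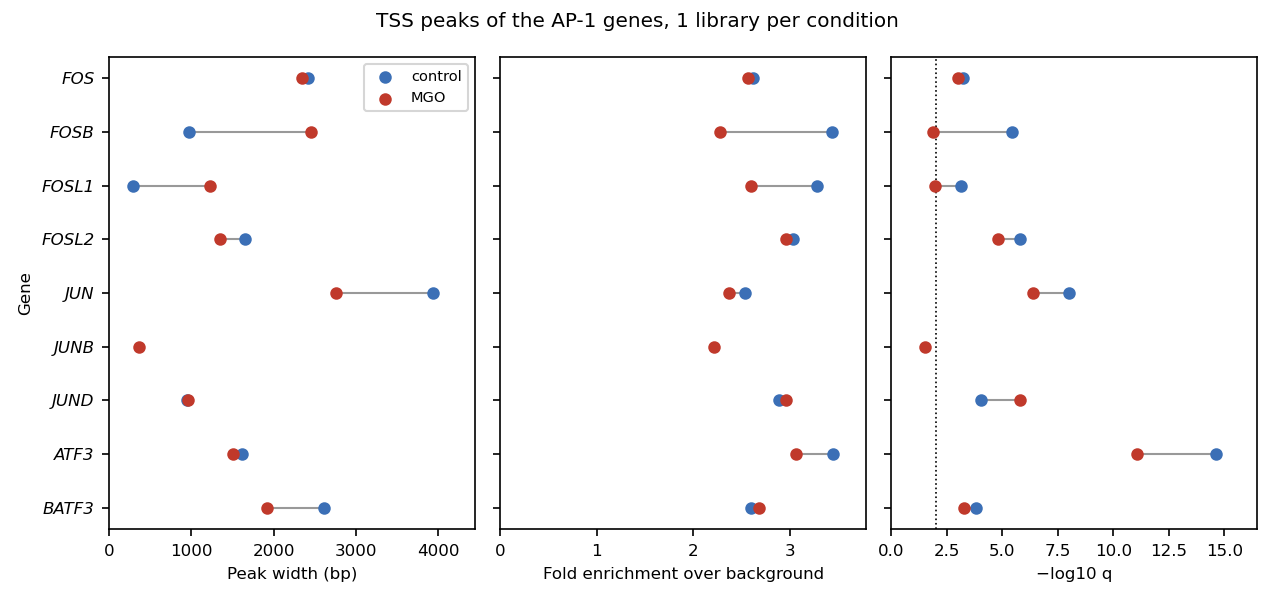
Width in bp, fold enrichment over background and −log10 q of the TSS peaks of each AP-1 gene in the control (blue) and MGO (red) library, joined by a line where both exist. The dotted line marks a −log10 q of 2, and the MGO points of FOSB, FOSL1 and JUNB lie to its left.

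The Jun genes encode the proteins that Fos proteins need as partners. JUN (ENSG00000177606.9, chr1:58776845-58784048, minus strand), whose product is activated by JNK, had a control peak of 3931 bp at chr1:58781584-58785514. The MGO peak of 2750 bp at chr1:58782186-58784935 lay wholly inside it. The control peak was at percentile 99.95 of width in its list, and the MGO peak had a ratio of 0.70 to it, the lowest of the 8 genes. The fold enrichment was 2.54 in control and 2.37 in MGO, and the −log10 p was 10.7 and 9.21. The peaks also lay within 1000 bp of starts of 2 lncRNAs, LINC01135 and ENSG00000290013, and cannot be assigned to JUN alone.

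JUNB (ENSG00000171223.6, chr19:12791486-12793315, plus strand), a Jun protein known to restrain JUN in many settings, had no control peak within 1000 bp, and the nearest one was 9966 bp away. Its MGO peak at chr19:12791454-12791818 was 365 bp wide and held the single annotated start. The fold enrichment of 2.22 was at percentile 1.62 of the MGO list, the −log10 p was 3.90 and the −log10 q 1.53. The JUNB peak was thus among the weakest of its list, and it also lay within 1000 bp of a start of HOOK2.

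JUND (ENSG00000130522.6, chr19:18279694-18281622, minus strand), the Jun gene known for steady expression in resting cells, had nearly the same peak in both lists. The control peak at chr19:18281230-18282171 was 942 bp wide and the MGO peak at chr19:18281228-18282181 was 954 bp wide and contained it. The fold enrichment was 2.89 and 2.96 and the −log10 p 6.46 and 8.60. JUND was the 1 gene of the 8 whose −log10 p was higher in MGO, and both peaks covered the CRE shown above.

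ATF3 (ENSG00000162772.18, chr1:212565334-212620777, plus strand) encodes a stress-inducible factor that represses as a homodimer. Its peaks lay over an internal cluster of 3 of its 7 starts, which holds the canonical start at 212608761. The control peak at chr1:212607971-212609582 was 1612 bp wide, with a fold enrichment of 3.45 and a −log10 p of 17.7. The MGO peak at chr1:212608267-212609776 was 1510 bp wide, with 3.06 and 14.2. ATF3 had the strongest TSS peak of the 9 genes in both lists, and both values were lower in MGO. No peak of either list lay within 1000 bp of the most upstream start at 212565334. The nearest was a control-only intronic peak 1872 bp away at chr1:212567206-212567994, with a −log10 p of 4.35.

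A further intronic ATF3 peak was present in both lists, at chr1:212595456-212596471 in control and chr1:212595982-212596770 in MGO. Its fold enrichment was 2.80 in control and 3.40 in MGO, and its −log10 p was 4.57 and 8.36. The MGO peak was stronger here, unlike at the ATF3 start, but the peaks shared only 490 bp and each held a TRE that the other did not cover.

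BATF3 (ENSG00000123685.9, chr1:212686417-212699840, minus strand), known for its role in a class of dendritic cells, lies next to ATF3. Its control peak at chr1:212699153-212701756 was 2604 bp wide and its MGO peak at chr1:212699259-212701181 was 1923 bp wide and lay inside it. The fold enrichment was 2.60 and 2.68, and the −log10 p 6.20 and 5.83. BATF3 and JUND were the 2 genes with a higher fold enrichment in MGO, and the other 6 of 8 had a lower one.

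Over the 8 genes with both peaks, the median −log10 p was 7.22 in control and 6.67 in MGO, against 9.57 and 7.73 over all protein-coding genes with a TSS peak in both. The median fold enrichment was 2.97 and 2.64, against 3.68 and 3.34, so the AP-1 peaks were weaker than the typical TSS peak in both libraries. Their widths had medians of 1632 and 1716.5 bp, against 1197 and 1074 bp. Of the 37 annotated start positions of the 9 genes, 16 lay in a control peak and 23 in an MGO peak, against 41.5% and 39.0% of start positions of all protein-coding genes. The 6 starts of FOSB and the 1 of JUNB make up the difference. The length covered within 1000 bp of the starts was 10854 bp in control and 13025 bp in MGO, a ratio of 1.20 against 0.856 for all protein-coding genes. With the threshold of 2 for the −log10 q the ratio was 0.828, below 1, because the FOSB, FOSL1 and JUNB peaks of the MGO list left the sum.

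Within 100 kb of the starts there were 60 control and 52 MGO peaks. Their ratio of 0.867 (95% exact binomial interval 0.586 to 1.28) stood beside 0.663 within 100 kb of all protein-coding genes. With equal numbers of peaks taken from the lists by −log10 p it turned to 1.27, from 41 control and 52 MGO peaks. That setting makes the whole lists equally long by construction, and its ratio near all protein-coding genes was not computed. The 1.27 is therefore not read as a gain at AP-1 genes. The intervals given here cover counting error only and treat peaks as independent. No overlap with the other list was found for 17 control peaks, 28.3% against 44.5% near protein-coding genes, and for 9 MGO peaks, 17.3% against 16.2%. The share of control peaks kept in the MGO list was 71.7% (95% Wilson interval 59.2 to 81.5), and its interval lay above the 55.5% near protein-coding genes. Among peaks within 1000 bp of any start the share was 82.2% of 45 control peaks (68.7 to 90.7) against 85.7%, and among peaks away from starts 40.0% of 15 (19.8 to 64.3) against 23.7%. In both classes of control peaks the interval held the background. Among MGO peaks within 1000 bp of any start, 87.8% of 41 overlapped a control peak (74.5 to 94.7), against 95.8%. That interval lay below its background. Among MGO peaks away from starts the share was 63.6% of 11 (35.4 to 84.8) against 56.9%, and the interval held the background.

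The 3 AP-1 genes on chromosome 19, where genes are dense, held 32 of the 60 control and 28 of the 52 MGO peaks. There 71.9% of the control peaks had an MGO partner (54.6 to 84.4), against 74.6% near all protein-coding genes of that chromosome. On the other chromosomes the share was 71.4% of 28 peaks (52.9 to 84.7), against 54.8%. Both intervals held their background. The share near AP-1 genes was thus nearly equal on chromosome 19 and elsewhere, while the background differed.

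**Figure D3:**
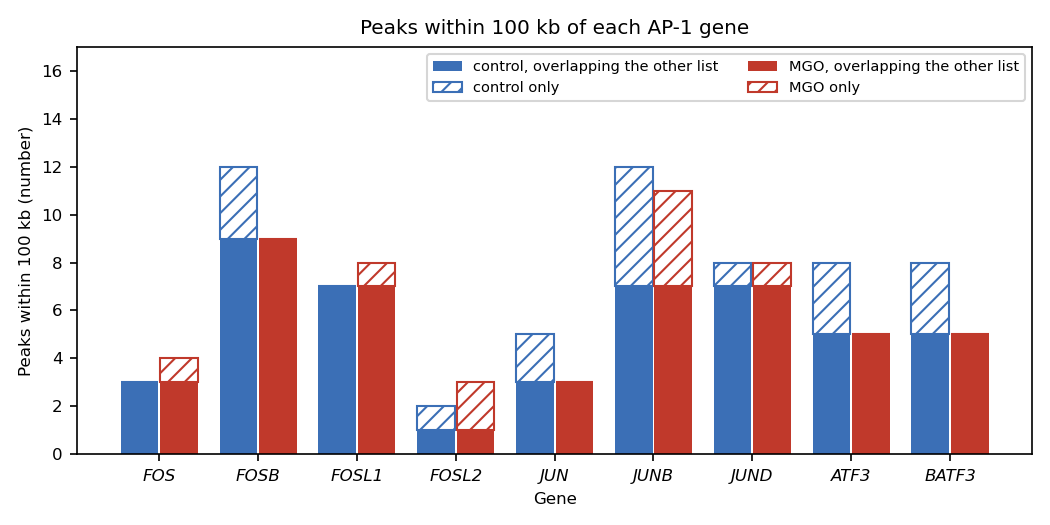
Number of control (blue) and MGO (red) peaks within 100 kb of each AP-1 gene, with hatched parts for peaks that overlap none of the other list. JUNB has 5 control-only and 4 MGO-only peaks, and FOSB, JUN, ATF3 and BATF3 have hatched control parts only.

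By gene, 3 of 9 had more MGO than control peaks within 100 kb, against 9.09% of protein-coding genes. These were FOS with 3 control and 4 MGO peaks, FOSL1 with 7 and 8, and FOSL2 with 2 and 3. JUND had 8 in each. The control list was longer at FOSB with 12 and 9, JUN with 5 and 3, JUNB with 12 and 11, and ATF3 and BATF3 with 8 and 5 each. The genes with more MGO peaks were thus all Fos genes, each by 1 peak, which is a count of 3 genes and no test. The pattern did not hold for peaks with a −log10 q of 2 or more. With these, FOS had 3 in each list, FOSL1 had 7 control and 5 MGO peaks, and FOSL2 had 1 and 2. FOSL2 was then the only AP-1 gene with more MGO peaks. The windows of ATF3 and BATF3 shared 5 control and 4 MGO peaks, so these 2 genes are not independent.

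**Figure D4:**
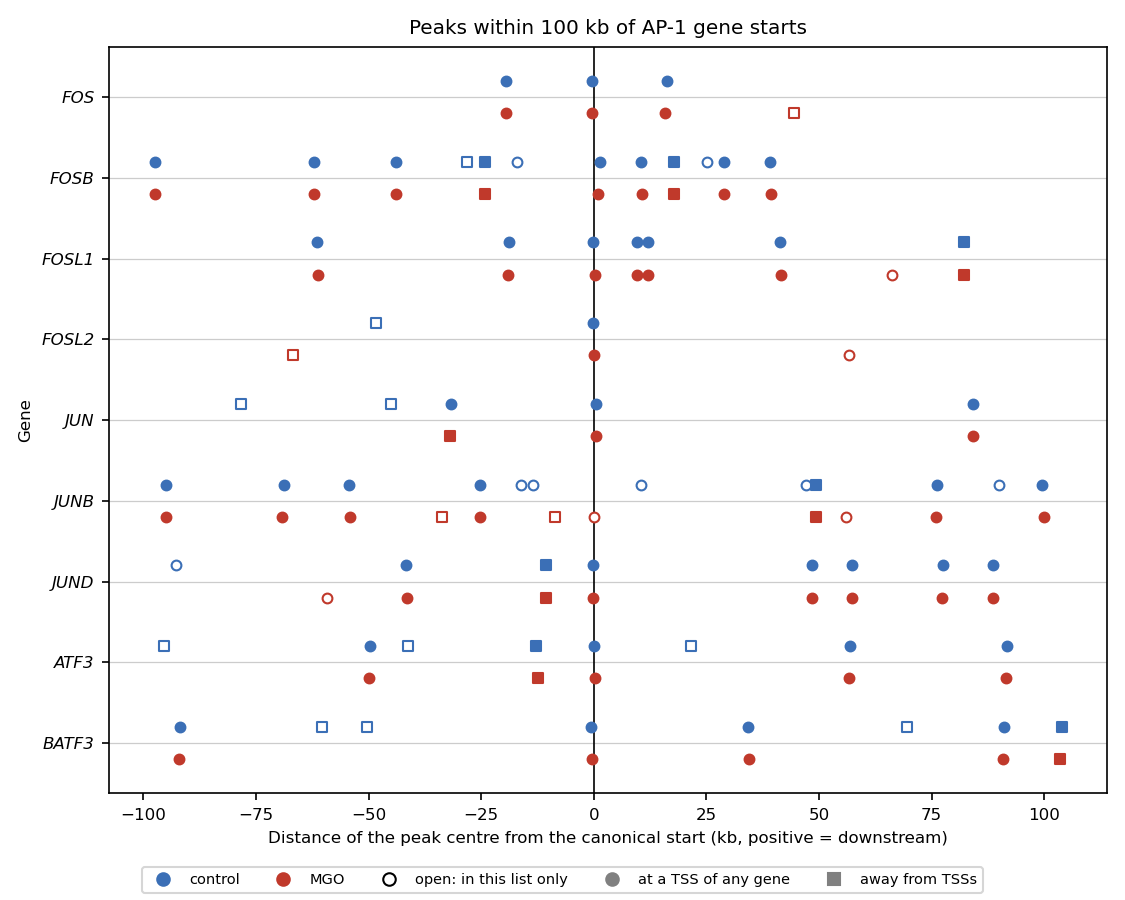
Centre of each peak within 100 kb of any start of an AP-1 gene, by distance from the canonical start in kb with positive values downstream, control in blue above and MGO in red below each line. Open symbols overlap no peak of the other list, circles lie within 1000 bp of a start of any gene and squares do not, and the ATF3 and BATF3 rows share peaks.

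The 43 overlapping pairs near AP-1 genes had the MGO peak narrower in 22, or 51.2%, against 68.4% of all overlapping pairs. The MGO fold enrichment was lower in 34, or 79.1%, against 72.1%. The −log10 p was lower in MGO in 27, or 62.8%, against 74%, and higher in 16. The width ratio had a median of 0.980 against 0.881. Near the AP-1 genes the shares of pairs with a narrower MGO peak and with a lower −log10 p were thus below those of all pairs. The share with a lower fold enrichment was above. Of the 43 pairs, 23 were on chromosome 19, and the first 2 shares were low only there. On the other chromosomes, with 20 pairs, they were close to those of all pairs. No background of pairs was computed for chromosome 19, so these shares are not read as a trait of AP-1 genes.

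The strongest distal control peak was at chr1:212665330-212665888, 21621 bp downstream of the nearest BATF3 start and at a start of LINC02773, with a fold enrichment of 4.71 and a −log10 p of 17.3. Its MGO partner at chr1:212665135-212665717 had 4.16 and 10.3 and was the strongest distal MGO peak. A peak at a start of MYSM1, a histone H2A deubiquitinase gene downstream of JUN, had a −log10 p of 11.1 at chr1:58699439-58700257 in control and 8.45 at chr1:58699447-58700249 in MGO. Each of these pairs was weaker in the MGO list. Upstream of FOS the peak at chr14:75258755-75259748, 19078 bp away, had a −log10 p of 10.7 in control, and its MGO partner at chr14:75258968-75259713 had 7.79. At a start of PDE4C, a cyclic AMP phosphodiesterase gene 56107 bp downstream of JUND, the value was 9.33 at chr19:18223942-18224822 in control and 7.85 at chr19:18223932-18224729 in MGO. The ATF3 stretch with TRE and CRE lay in a control peak at chr1:212558560-212559528 with a −log10 p of 9.51 and an MGO peak at chr1:212558538-212559140 with 5.28, at starts of 2 lncRNAs. Of these strongest distal peaks, only the ATF3 intronic one had a higher −log10 p in MGO. These were chosen for a high −log10 p, and over all 43 pairs it was higher in MGO in 16, among them 6 of the 7 pairs near JUNB.

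Of the 5 peaks of highest −log10 p found in 1 list, 3 were control-only peaks near JUNB. They lay at a start of DNASE2 (a lysosomal nuclease gene, chr19:12881252-12881623, −log10 p 6.29), of MAST1 (a kinase gene, chr19:12838351-12838684, 5.26), and of PRDX2 and THSD8 (chr19:12801452-12802417, 5.19), where PRDX2 encodes a peroxiredoxin. The 2 from the MGO list were one within HOOK2, 8499 bp upstream of JUNB, at chr19:12782699-12782987 with 5.67, and one within BABAM2, 66175 bp upstream of FOSL2, at chr2:28325933-28326273 with 4.56. Those were the 2 of 9 MGO-only peaks with a −log10 q of 2 or more, which 5 of 17 control-only peaks also reached, against 27% of all MGO-only and 41.2% of all control-only peaks. Most peaks in 1 list near AP-1 genes were thus below that threshold, as were most such peaks of the whole lists. At the outer limit of the windows, the farthest peaks inside were 99138 bp (control) and 99288 bp (MGO) from JUNB, and the nearest outside was an MGO peak 101167 bp from FOSL1.

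A TRE was found in 9 of the 60 control peaks, or 15%, and in 7 of the 52 MGO peaks, or 13.5%, against 11.4% and 14.5% of all peaks in the lists on the chromosomes searched. In the single-list peaks it was found in 4 of 17 control-only and 1 of 9 MGO-only peaks, 23.5% (9.56 to 47.3) and 11.1% (1.99 to 43.5), against 10.3% and 24.0% over all single-list peaks. The intervals from so few peaks were wide and overlapped each other. The order of the shares turned with the setting, to 16.7% of control-only and 50% of MGO-only peaks at a −log10 q of 2 or more, to 12.1% and 21.4% within 200 kb and to 0% and 13.3% with equal numbers of peaks, so no order is read from them. A CRE was found in 2 control peaks, or 3.33% (0.919 to 11.4), against 1.98% of all control peaks. It was found in 3 MGO peaks, or 5.77% (1.98 to 15.6), against 2.87% of all MGO peaks. In both lists the interval held the background. Peaks were also set against those of the same list within 20% of the same width. Among such control peaks, a TRE was found in 6.75% for the FOSL1 TSS peak and 14.6% for that of FOSL2. Among such MGO peaks, it was found in 12.0% and 12.8% for these 2 genes and 16.4% for the MGO-only peak in BABAM2. A CRE was found in 2.40% for the JUND control TSS peak and 3.69% for its MGO TSS peak. Peaks differ in width, and the number of TRE matches per kb was 0.195 in control and 0.159 in MGO near AP-1 genes, against 0.153 and 0.219 over all peaks.

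Promoters of RefSeq, 300 bases per start on GRCh38, were matched for 7 of the 9 genes, with 8 promoters. FOSL1 and BATF3 had none in the table. Over all 21613 protein-coding promoters a TRE was found on either strand in 4.03%, a CRE in 2.29%, the JUN variant in 2.14% and a CArG box in 1.26%. A TRE was found at FOSL2, at position 4 from the start, a CRE at JUND and the variant at JUN and in the upstream promoter of ATF3, at position -123 from that start, where no peak of either list lay. Matches describe sequence and are not bound sites.

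The other genes of the pathway were read from fixed lists as a comparison. Of 10 other dimer partners, 9 had a control and 8 an MGO TSS peak, and the 1 with a control peak alone was BATF2. Of 17 genes of the MAP kinase cascade that act on AP-1, 17 and 15 had one, and MAPK11 (p38 beta, −log10 p 3.93) and MAP2K6 (an activator of p38, 4.99) had it in control alone. All 12 genes for factors and coactivators at AP-1 gene promoters had a peak in both lists. Of 14 other immediate-early genes 12 had one in both. Among the AP-1 target genes, CCND1 (cyclin D1, 3.82) and TIMP1 (a metalloproteinase inhibitor, 5.51) had one in control alone. Over all protein-coding genes the shares were 67.3% in control, 63.9% in MGO and 4.72% in control alone. The median width ratios were 0.937 for the partners, 0.915 for the kinases, 0.883 for the factors, 1.04 for the other immediate-early genes and 0.771 for the targets. These counts are of single libraries and no difference between the lists was tested.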

How the data were processed

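ATAC-seq libraries of 293T cells, 1 control and 1 MGO, were prepared from 50000 cells each. The authors aligned reads to GRCh38 with BWA-MEM 0.7.15, used Picard to discard mitochondrial and multi-mapping reads (version 2.16.0 in the submitters' processing notes), subsampled to equal depth, called broad peaks with MACS2 (settings not given in the sources used here) and left out ENCODE blacklist regions. Subsampling limits the number of weak peaks. For each peak the authors deposited a fold enrichment (a ratio), a −log10 p-value, a −log10 q-value and a score, which was not used. Reads and read counts were not analysed here, so no precision from depth could be computed.

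All deposited peaks were used; q 0.01 (−log10 q 2) was an alternative. TSSs were transcript starts of GENCODE 44. Overlap was at least 1 bp, with Wilson or exact binomial 95% intervals. Motifs were searched on both strands of GRCh38, in peaks of chromosomes 1 to 22, X and Y. Python 3.11.15, numpy 2.4.6, pandas 2.3.3 and scipy 1.17.1 were used, and overlaps were tested on simulated data against bedtools 2.31.1. All 9 genes were named with their TSS and gene-body peaks. Of distal peaks, those named were the 5 of highest −log10 p in each list and the 5 highest among single-list peaks. Of the other lists, genes with a peak in 1 list were named, and some listed genes are not reported here. Members and lists were chosen with earlier results of these data known. Alternatives were other thresholds, windows, overlaps and equal peak numbers.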

Additional observations from a re-analysis of the deposited data

How the results depend on the processing

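Each library stands alone, so no setting could be set against replicate error, and without read counts an absent peak cannot be given an upper limit. No paired analysis was possible because each condition had 1 library and no test was made. Of 61 values recomputed under other settings, 45 moved by less than their counting interval or 1.5 times, 13 moved more and 3 reversed. The threshold of 2 for the −log10 q gave a covered-length ratio at the starts of 0.828 in place of 1.20, and a TRE in 50% of 4 MGO-only peaks. The number of genes with an MGO TSS peak went from 9 to 6 there. A fold enrichment of at least 4 left 0 genes with a TSS peak in either list, a peak number ratio of 0.5, shares of overlapping peaks of 50% (control) and 100% (MGO), a covered-length ratio within 100 kb of 0.375 and a TRE in 0% of control-only peaks. It gave no value for the ratio at the starts or for MGO-only peaks. With equal numbers of peaks, those of highest −log10 p, the peak number ratio was 1.27 and the covered-length ratio within 100 kb was 1.1. Both were reversed from below 1, but neither was computed near all protein-coding genes in this setting. The share of control peaks overlapping MGO was 90.2% there, and 0% of control-only peaks held a TRE. Within 50 kb 0% of MGO-only peaks held a TRE. A reciprocal overlap of 50% gave shares of 58.3% and 67.3%. Chosen after seeing the data were 11 further values, of which 9 stayed close. Peaks above that threshold set against all peaks of the other list gave shares of 88.4% (control) and 94.3% (MGO). Leaving out 1 gene at a time gave covered-length ratios at the starts from 1.07 without FOSB to 1.27 without FOSL2.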
